A study of Drosophila melanogaster with 2 samples.

Results

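The Cpr genes of Drosophila melanogaster encode cuticle proteins with the chitin-binding domain of Rebers and Riddiford. They were taken as the protein-coding genes of the Ensembl BDGP6 annotation whose symbol starts with Cpr and a digit, and there were 70 of them among 13968 protein-coding genes. The question addressed was where Odd-eGFP, a fusion of the zinc-finger protein Odd skipped with enhanced green fluorescent protein, was attached to chromatin in relation to these genes. Chromatin came from whole embryos of mixed sex aged 0 to 16 h of a transgenic line that stably expressed odd with GFP at its C terminus, and an anti-GFP antibody was used. There was 1 group, with 2 biological replicates, and neither a second genotype nor the control library was analysed here. Both replicates carried the fusion, and the labels name no other allele or agent. Whole embryos mix all tissues, so a site cannot be assigned to the epidermis, the layer that makes cuticle.

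The deposited relaxed lists, one for each replicate and one for the pooled reads, keep background and hold 30000 peaks apiece on the dm6 build. A stricter pooled list of 4291 peaks had been filtered by the irreproducible discovery rate (IDR), a measure of how well replicates rank the same peaks. Each peak has a signal value, the caller's own score, which served here only to rank peaks within a list, and rank 1 is the strongest. The signal value of the IDR list ran from 144 to 2892. Read depth is unknown, because peak lists carry no read numbers, and the equal length of the relaxed lists says nothing about it. With 1 group no test across samples exists, and the members' counts stand beside the same counts over all protein-coding genes.

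Insect cuticle is a layered material of chitin fibres and proteins that the epidermis secretes at its outer face. The domain of Rebers and Riddiford lets a protein hold on to chitin, and different members of the family are laid down in soft and in hard cuticle and at different stages. Many of these genes arose by tandem duplication and lie side by side in clusters, and pulses of ecdysone acting through a cascade of nuclear receptors time their transcription. The first cuticle of the fly is secreted late in embryonic development. Odd and its relatives encoded by drm, sob and bowl are known from segmentation, from gut development and from the joints of the leg, and their role at cuticle genes is not part of that textbook account.

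The 70 genes were short and clustered. Their median span was 1094 bp, from 457 to 18590 bp, against a median of 2165 bp over all protein-coding genes, and 53 members spanned under 2 kb. Arm 3L held 35, arm 2R 21, arms 2L and 3R 5 each, and the X chromosome 4. By the number and letter of the cytological band in their symbols they fell into 33 groups, of which 21 held 1 gene and 5 held 4 or more. These 5 were Cpr49A with 8 genes, Cpr47E and Cpr65A with 7 each, and Cpr64A and Cpr76B with 4 each. Translated reference coding sequences were searched for the domain consensus. A strict form matched only 5 members (7.14%), 7 of 30 other cuticle protein genes described below (23.3%) and 0.0861% of all protein-coding genes. A loose form, chosen after that count, was found in 58 of 70 members (82.9%), 26 of those 30 (86.7%) and 0.645% of all. Because of that choice it is no independent check of the label, and it does not set the members apart from other cuticle protein genes.

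Most Cpr genes had no Odd-eGFP site of the IDR list nearby. An IDR summit lay in the gene span or no more than 5 kb outside it, called the territory here, for 17 of 70 members (24.3%, exact 95% interval 14.8 to 36.0), while 39.7% of all protein-coding genes had one. Among the 10835 protein-coding genes whose span lay between the 5th and 95th percentile of the members' spans, the share was 35.8%. This share lies inside the members' interval, close to its upper bound, and the 39.7% lies outside it. The median span of these genes of like span was 1817 bp, against 1094 bp for the members, so length was made closer but not equal. The 17 members shared 11 summits, and 6 of these summits counted for more than 1 member. Per Mb of the members' joined territories, which cover 0.594 Mb, there were 18.5 IDR summits, against 32.1 per Mb of the 6 chromosome arms. The interval covers the counting of genes only, and neighbours that share a summit are not independent. No test of the difference between these shares was made. Without replicate 1, on the 4291 strongest peaks of replicate 2, the count was 11, beside 41.4% of all protein-coding genes.

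Fewer members had a summit nearest to their own start site. For 5 members (7.14%, interval 2.36 to 15.9) the territory held an IDR summit whose nearest protein-coding transcription start site (TSS) was the member's own. The share was 17.6% of all protein-coding genes, outside this interval, and 12.1% of those of like span, inside it. These members were Cpr67Fb, Cpr65Av, Cpr76Ba, Cpr65Eb and Cpr100A. An IDR summit within 500 bp of an own TSS was found for 2 members, Cpr65Av and Cpr67Fb (2.86%, interval 0.348 to 9.94). This stood beside 14.3% of all protein-coding genes and 11.7% of those of like span, both outside the interval. Without replicate 1, on the 4291 strongest peaks of replicate 2, the counts were 3 by nearest TSS, beside 18% of all protein-coding genes, and 0 within 500 bp, beside 15.5%. In replicate 2 the peak over the Cpr67Fb summit had rank 2179, but its own summit lay more than 500 bp from that TSS. A count of 0 of 70 allows up to 4.29%. This limit, like that given with every count of 0 here, is 3 divided by the number counted. It is an approximation and not a bound of the exact interval. The median distance from a member's TSS to the nearest IDR summit was 14695 bp, and over all protein-coding genes it was 10125 bp. As the plot of these distances shows, no member had a summit within 250 bp of its TSS, and 11.1% of all protein-coding genes did.

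**Figure D1:**
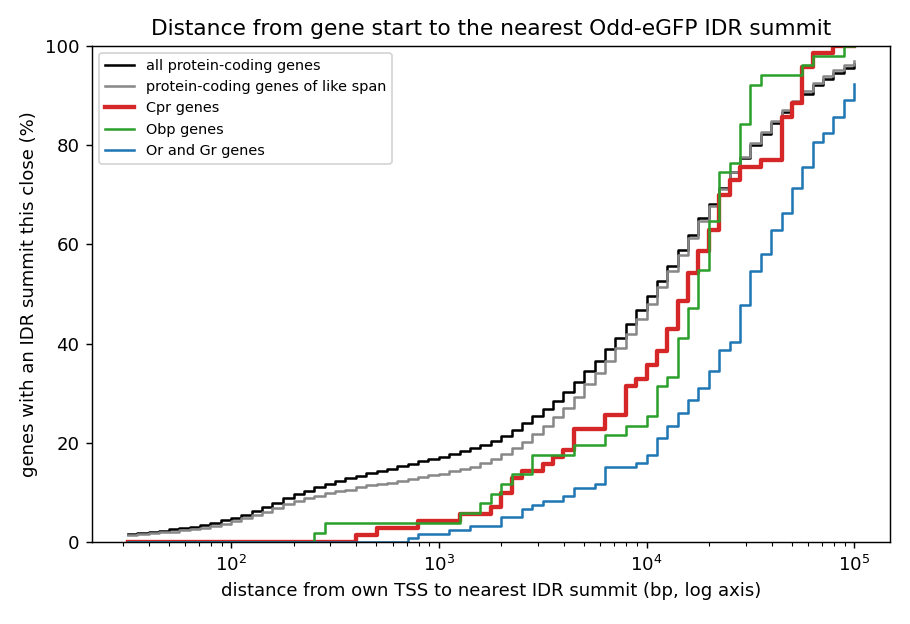
Percent of genes (vertical axis) with an IDR summit no farther from an own TSS than the distance on the horizontal log axis, in bp, for Cpr genes (red), all protein-coding genes (black), genes of like span (grey), odorant-binding protein genes (Obp, green) and odorant and gustatory receptor genes (Or and Gr, blue). The red line stays at 0 up to 250 bp and reaches 50% at 14695 bp, to the right of the black line, which reaches it at 10125 bp.

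The sequences at the 5 summits that lay nearest to a Cpr TSS are shown because they are the places where a site could be tied to a member by distance. Each reaches 100 bp to either side of the summit in the NCBI Release 6 reference (dm6), plus strand, 5′ to 3′. Capitals mark the 11 bases centred on the summit and, in the sequence of Cpr65Eb, also a run of the word GAGAG. The sequence under rank 32, near Cpr78Cc, follows as the strongest in any member's territory.
Cpr67Fb (chr3L:10893580-10893780): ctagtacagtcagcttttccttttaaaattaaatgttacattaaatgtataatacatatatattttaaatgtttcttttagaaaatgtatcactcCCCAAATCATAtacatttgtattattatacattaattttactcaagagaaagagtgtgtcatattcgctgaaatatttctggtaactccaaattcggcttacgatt
Cpr65Av (chr3L:6140264-6140464): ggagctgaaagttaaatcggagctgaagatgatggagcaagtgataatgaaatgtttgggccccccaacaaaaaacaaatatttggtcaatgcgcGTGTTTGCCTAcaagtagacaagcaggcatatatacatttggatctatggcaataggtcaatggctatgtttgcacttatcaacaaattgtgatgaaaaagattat
Cpr76Ba (chr3L:19516642-19516842): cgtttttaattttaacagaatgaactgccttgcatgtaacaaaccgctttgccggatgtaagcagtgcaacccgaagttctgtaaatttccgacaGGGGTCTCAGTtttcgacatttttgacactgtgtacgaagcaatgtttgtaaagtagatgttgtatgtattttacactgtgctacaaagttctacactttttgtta
Cpr65Eb (chr3L:7090854-7091054): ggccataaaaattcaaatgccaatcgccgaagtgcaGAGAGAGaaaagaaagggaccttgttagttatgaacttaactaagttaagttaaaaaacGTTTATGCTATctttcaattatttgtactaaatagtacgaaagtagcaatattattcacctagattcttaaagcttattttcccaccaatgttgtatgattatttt
Cpr100A (chr3R:30865597-30865797): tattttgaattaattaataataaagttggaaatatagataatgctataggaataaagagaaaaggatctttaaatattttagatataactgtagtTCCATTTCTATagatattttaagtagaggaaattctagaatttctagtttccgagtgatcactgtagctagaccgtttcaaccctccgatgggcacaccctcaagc
Cpr78Cc (chr3L:21304462-21304662): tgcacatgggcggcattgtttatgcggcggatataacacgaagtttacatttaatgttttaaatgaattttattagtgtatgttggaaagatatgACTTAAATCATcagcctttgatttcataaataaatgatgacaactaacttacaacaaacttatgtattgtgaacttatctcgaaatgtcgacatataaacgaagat

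These windows were rich in A and T. The GC content of such windows at the 11 summits ran from 25.4% to 39.3% with a median of 30.8%, and the median over all 4291 IDR summits was 36.8%. Of 5 words searched on both strands, ACAGTAGC (used for Odd), AACCGGTT (Grainy head, the factor of epidermal barrier genes), CAAGGTCA (Ftz-f1, a nuclear receptor of the ecdysone cascade) and CAGGTAG (Zelda, an activator of the early zygotic genome) were in none of the 11 windows. A count of 0 among 11 allows a share of up to 27.3%. Over all IDR windows their shares were 0.862%, 0.256%, 0.373% and 1.26% in that order. The word GAGAG, read by GAGA factor, was in 2 of the 11 windows (18.2%) and in 27.4% of all IDR windows. It lay 64 to 58 bp before the summit of Cpr65Eb, in 2 overlapping copies.

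Promoters were searched for the same words. In windows from 250 bp before to 50 bp after the start of each gene, those 4 words were in none of 70 member promoters, which allows up to 4.29%. Their shares over 13945 promoters of protein-coding genes were 0.531% for the Odd word, 0.753% for that of Grainy head, 0.495% for Ftz-f1 and 1.64% for Zelda. GAGAG was in 23 of 70 member promoters (32.9%) and in 29.8% of all. These are matches of letters only, recalled consensus words and not measured sites, and a word missing from a window says nothing about the factor.

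The Cpr67F cluster on arm 3L had the strongest summit whose nearest TSS was a member's own. This summit lay at chr3L:10893680, between Cpr67Fa2 and Cpr67Fb and inside the annotated antisense RNA gene asRNA:CR45171, 493 bp before the TSS of Cpr67Fb, at rank 1607 with a signal value of 261. Its signal value was 160 in replicate 1 (rank 1246) and 112 in replicate 2 (rank 2179). It was placed in the upper part of both replicate lists, and it stood in the territories of all 3 members, Cpr67Fa1, Cpr67Fa2 and Cpr67Fb. Cpr67Fa1 also had a weaker summit of the pooled relaxed list 459 bp from its TSS, at rank 8423, outside the IDR list. The 402 bp coding sequences of Cpr67Fa1 and Cpr67Fa2 were 96.5% identical, so reads there can be hard to place. The sources used here do not say how reads with several matching places were treated, and the part of this in the values was not tested.

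The summit of Cpr65Av was the only other one within 500 bp of a member's TSS. It lay at chr3L:6140364, 390 bp before that TSS, at rank 2860 with a signal value of 186. The signal value was 115.1 in replicate 1 (rank 2212) and 71.7 in replicate 2 (rank 4747). Replicate 1 therefore had this site among its 4291 strongest peaks and replicate 2 did not. The same summit stood in the territory of Cpr65Aw. In the rest of the Cpr65A cluster, Cpr65Au, Cpr65Ax1, Cpr65Ax2, Cpr65Ay and Cpr65Az had no IDR summit, although each had 1 to 5 summits of the pooled relaxed list. The strongest in their territories were at rank 5029 for Cpr65Ay and Cpr65Az, 9075 for Cpr65Ax2, 16494 for Cpr65Ax1 and 27214 for Cpr65Au. Rank 5029 lay 496 bp from the TSS of CG13297, and rank 16494 lay 176 bp from that of Lcp65Ac. Rank 9075 lay 156 bp from the TSS of the non-coding gene lncRNA:CR45421. Only rank 27214 was nearest to the TSS of the member named. The coding sequences of Cpr65Ax1 and Cpr65Ax2 were identical over 306 bp, which bears on how their reads can be placed as at Cpr67F.

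In the Cpr65E cluster the summit lay in the open stretch between divergent genes. It was at chr3L:7090954, 2167 bp before the TSS of Cpr65Eb and 2250 bp before that of Cpr65Ec, which is transcribed the other way, and 4346 bp before that of Cpr65Ea. Its rank was 3242 with a signal value of 172. The signal value was 88.3 in replicate 1 (rank 3493) and 82.7 in replicate 2 (rank 3711), so both replicates had it among their 4291 strongest. All 3 genes of the cluster had it in their territory. The pooled relaxed list held 9 summits in the territories of this cluster.

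The Cpr76B cluster had a summit at 1 end and none at the other. The summit at chr3L:19516742 lay 1590 bp downstream of the TSS of Cpr76Ba, beyond the 3′ end of this gene, at rank 3110 with a signal value of 176. The signal value was 105 in replicate 1 (rank 2594) and 67.0 in replicate 2 (rank 5302), so only replicate 1 had it among its 4291 strongest. It reached the territories of Cpr76Ba, Cpr76Bb and Cpr76Bc, and it was the only summit of the pooled relaxed list in the territories of the cluster. Cpr76Bd, the longest protein of the family with 1231 residues in the reference, had no peak in its territory in any of the 3 relaxed lists.

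Cpr100A, a gene with no Cpr neighbour on arm 3R, had the weakest of the 11 summits. It lay at chr3R:30865697, 1824 bp before the TSS, at rank 4234 of 4291 with a signal value of 146. The peak that covered it had a signal value of 58.8 in replicate 1 (rank 6879) and 86.9 in replicate 2 (rank 3435). Here replicate 2 ranked the site higher, opposite to Cpr65Av and Cpr76Ba.

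The other 6 summits lay nearest to the TSS of a neighbour that is no cuticle gene by its symbol. The strongest of all 11 was in the territory of Cpr78Cc, at chr3L:21304562, with rank 32 and a signal value of 1403. It was 3982 bp downstream of the TSS of Cpr78Cc but 95 bp from that of CG11309. Its signal value was 718 in replicate 1 (rank 33) and 691 in replicate 2 (rank 28), so the replicates placed it almost alike. The summit in the territory of Cpr67B (chr3L:9410988, rank 1847, signal value 240) lay 50 bp from the TSS of Cpsf5, which encodes a factor of messenger RNA cleavage, and 6191 bp from that of Cpr67B. It had a signal value of 168 in replicate 1 (rank 1158) and 68.0 in replicate 2 (rank 5180), the largest gap in signal value between the replicates among the 11.

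Cpr73D, with 18590 bp the longest gene of the family, overlaps Ogdh, the gene of a subunit of the oxoglutarate dehydrogenase of the citric acid cycle. Its summit at chr3L:16956912 (rank 1886, signal value 237) lay inside both genes, 777 bp from a TSS of Cpr73D and 527 bp from one of Ogdh. The signal value was 118 in replicate 1 (rank 2134) and 125 in replicate 2 (rank 1777). Which of the overlapping genes the site belongs to cannot be told apart by position.

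On arm 2R, the Cpr47E cluster had 3 IDR summits, all at the side of Cpr47Ef and Cpr47Eg. A pair at chr2R:11275763 (rank 2805, signal value 189) and chr2R:11275964 (rank 3681, signal value 159) lay 477 and 678 bp from the TSS of TpnC47D, a gene of the muscle calcium sensor troponin C. Both were covered by 1 peak of replicate 1 (rank 3041, signal value 95.8) and 1 of replicate 2 (rank 2505, signal value 103). The last, at chr2R:11279637 (rank 3979, signal value 151), lay 46 bp from the TSS of CG9067 and 1192 bp before that of Cpr47Eg. It had a signal value of 79.9 in replicate 1 (rank 4159) and 54.1 in replicate 2 (rank 7392).

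**Figure D2:**
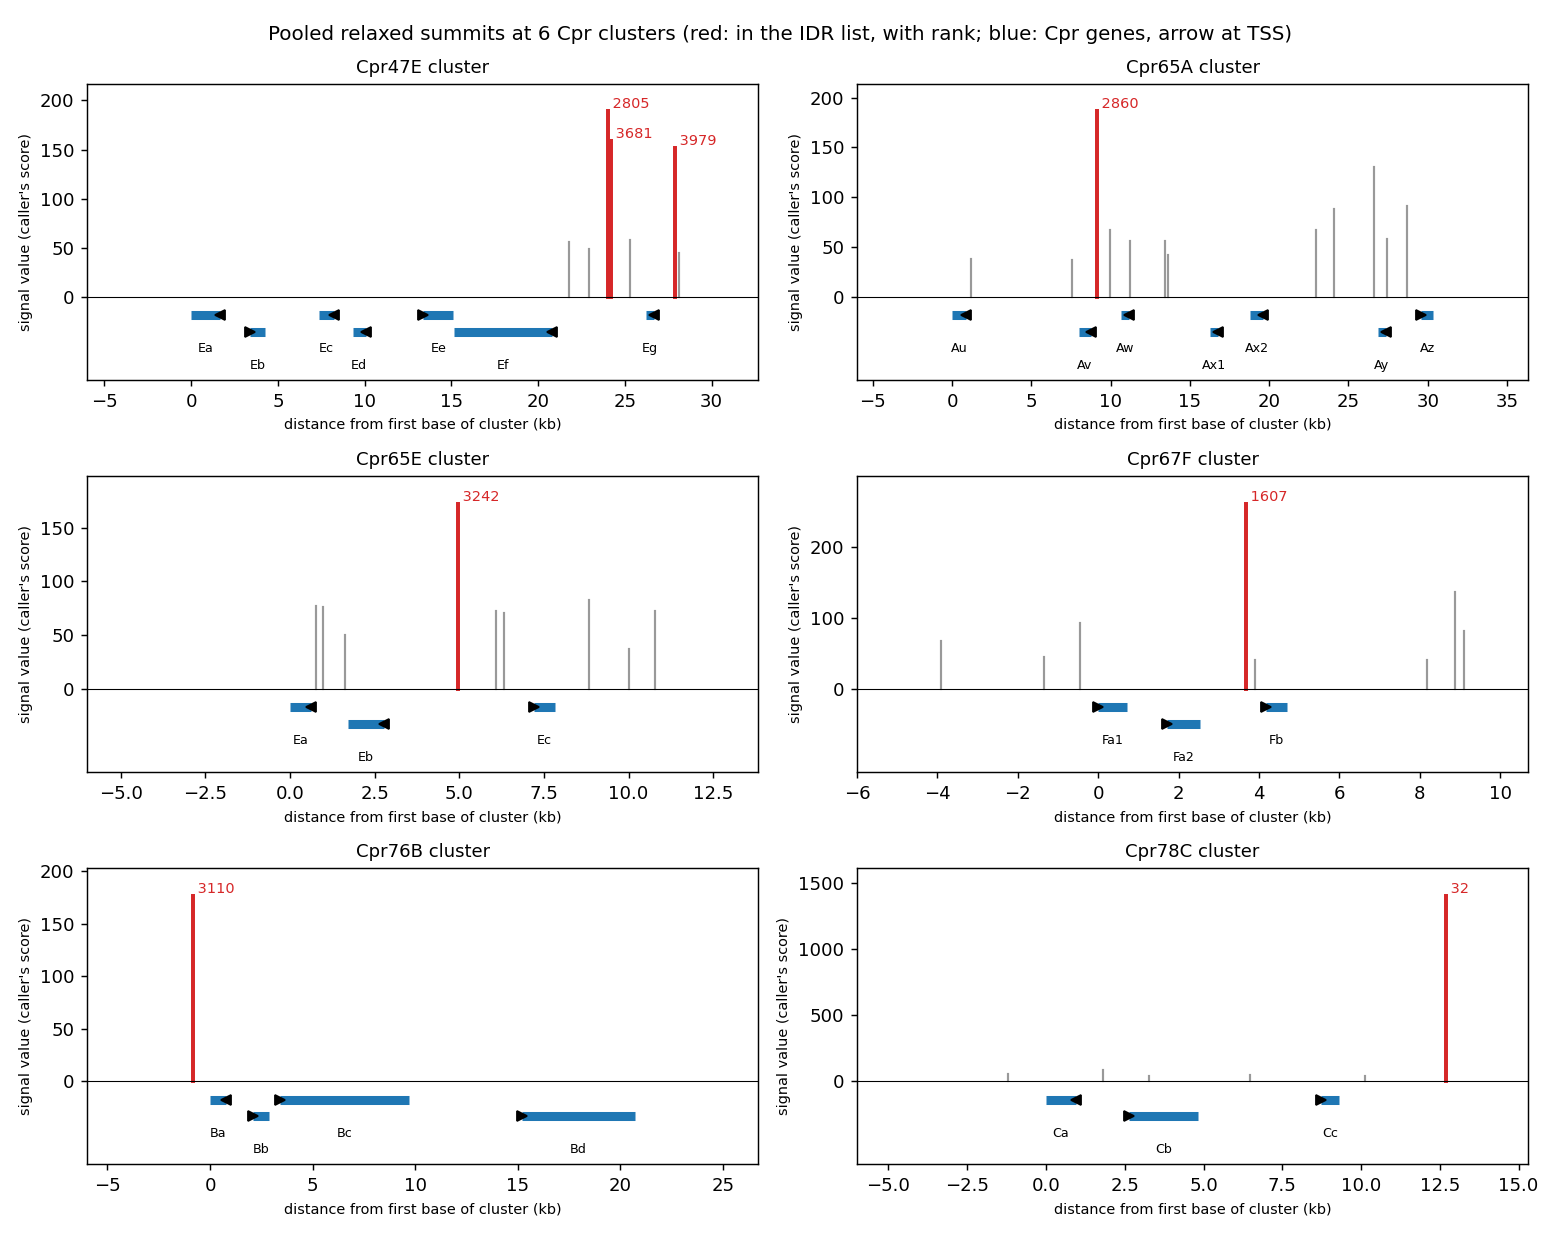
Signal value (vertical axis, the caller's score) of each pooled relaxed summit in the territories of 6 Cpr clusters, against the distance in kb from the first base of the cluster; red lines are in the IDR list and carry their rank, grey lines are not, and blue bars are the Cpr genes with an arrowhead at the TSS. The Cpr47E summits stand to the right of 5 genes without any, and the rank 32 summit of Cpr78C stands outside the cluster, 3982 bp from the TSS of Cpr78Cc.

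The strength of the 11 summits lay mostly in the lower part of the IDR list. Their median rank was 2860 against 2146 for the list, 4 were in its stronger part above that median, and their median signal value was 186 against 219. By position, 6 of the 11 were promoter summits, within 500 bp of the TSS of any annotated gene (54.5%), 4 were intergenic (36.4%) and 1 was intronic (9.09%). Over all 4291 IDR summits, 45.7% were at promoters, 12.4% intergenic and 39.1% intronic. The members' territories themselves are 29.3% promoter, 28.1% intergenic and 18.4% intronic by length, and the 6 arms are 13.6%, 27.2% and 39.5%. No test was made of these shares.

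The replicates were compared on their own lists. Among the 4291 strongest peaks of replicate 1, a summit lay in the territory of 17 members (24.3%, interval 14.8 to 36.0). The shares were 40.3% of all protein-coding genes and 36.7% of those of like span. In replicate 2 this held for 11 members (15.7%, interval 8.11 to 26.4), beside 41.4% and 37.9%. In each replicate both shares lie outside the members' interval, the 36.7% narrowly. The replicates had 10 members in common, 7 were found in replicate 1 alone and 1, Cpr100A, in replicate 2 alone. The 7 were Cpr65Av, Cpr65Aw, Cpr66Cb, Cpr67B, Cpr76Ba, Cpr76Bb and Cpr76Bc, of which Cpr66Cb had no IDR summit. Of the 11 IDR summits, 6 were covered by a peak among the 4291 strongest of both replicates, and all 11 by some peak of each relaxed list. Whether the replicates differ in depth, and what part that has in these counts, was not tested.

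**Figure D3:**
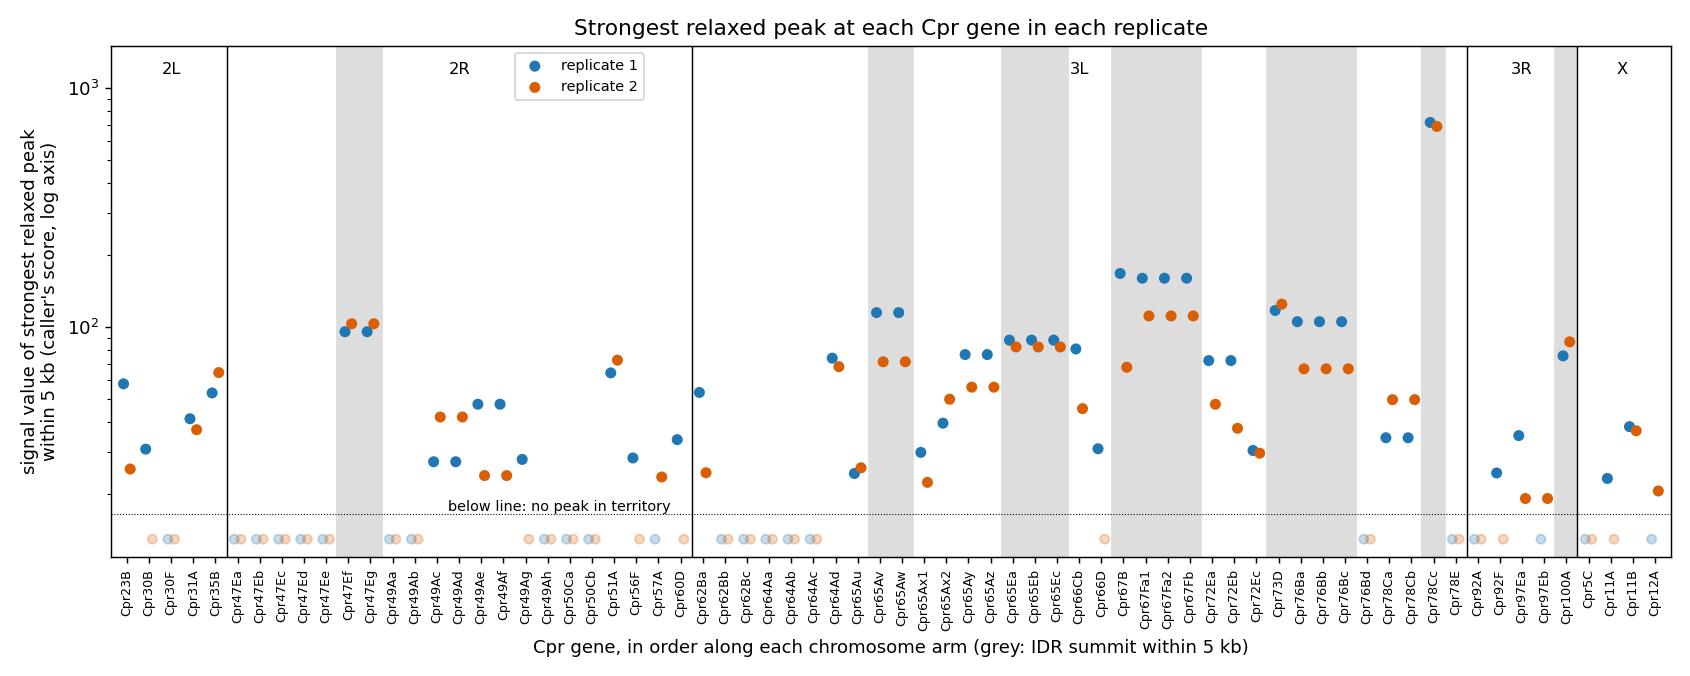
Signal value of the strongest relaxed peak in the territory of each of the 70 Cpr genes (vertical log axis, the caller's score) in replicate 1 (blue) and replicate 2 (orange), in order along the arms; pale points under the dotted line are genes without a peak, and grey bands are the 17 genes with an IDR summit. Cpr78Cc stands far above the rest in both replicates, at 718 and 691, and neighbours with the same value share a peak.

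In the relaxed lists, where background is included, the members' share by territory came closer to that of all genes. The pooled relaxed list had a summit in the territory of 44 members (62.9%, interval 50.5 to 74.1). The shares of all protein-coding genes, 72.1%, and of those of like span, 68.2%, lie inside this interval. Replicate 1 had one for 47 members (67.1%, interval 54.9 to 77.9), beside 76.4% of all protein-coding genes, inside the interval. Replicate 2 had one for 43 members (61.4%, interval 49.0 to 72.8), beside 75.7%, outside the interval. Within 500 bp of an own TSS, 12 members had a pooled relaxed summit (17.1%, interval 9.18 to 28.0). This stood beside 38.2% of all protein-coding genes and 32.1% of those of like span, both outside the interval. Per Mb of joined territory there were 168 pooled relaxed summits, against 224 per Mb of the arms. Of the 100 pooled relaxed summits in member territories, 57 had a member's TSS as the nearest, 43 were at the promoter of some gene and 39 were intergenic. Over all 30000, 27.4% were at promoters and 20.6% intergenic.

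Just below the IDR list stood a few summits at members. The strongest were at rank 4701, 256 bp from the TSS of Aps in the territory of Cpr67Fb, and at rank 4849, 3170 bp from the TSS of Cpr51A, which was the nearest. Cpr64Ad, the 1 member of the Cpr64A cluster with a relaxed peak in its territory, had a summit at rank 5179. Its own TSS, the nearest of a protein-coding gene, was 4720 bp away. The summit lay in an intron of CG43367, and the TSS of the non-coding gene asRNA:CR32252 was nearer, at 2635 bp. The signal value there was 127, with 74.2 in replicate 1 (rank 4741) and 68.4 in replicate 2 (rank 5131). These summits were chosen by rank after their values were seen.

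Of the 100 pooled relaxed summits in member territories, 59 were covered by a peak of both replicates, 36 by a peak of 1 and 5 by none. Over the 59, the signal values of the replicates had a Spearman rho of 0.619, given as a description across summits, which share libraries and in part the same covering peak. The Cpr78Cc site, at 718 and 691, was the farthest out on both axes.

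**Figure D4:**
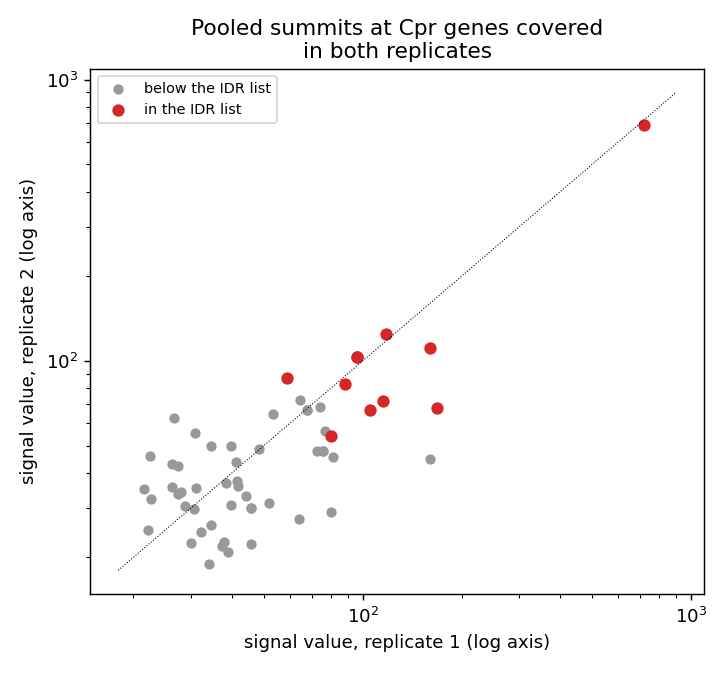
Signal value in replicate 1 (horizontal log axis) and replicate 2 (vertical log axis) of the peaks that cover the 59 pooled relaxed summits at Cpr genes found in both replicates; red points are in the IDR list, grey points are not, and the dotted line is equality. The red point at 718 and 691 is the site near Cpr78Cc, and 2 summits of Cpr47E share 1 point.

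There were 20 members without a summit in the territory in any of the 3 relaxed lists (28.6%, interval 18.4 to 40.6), beside 18% of all protein-coding genes and 20.5% of those of like span. The 20.5% lies inside this interval, and the 18% lies just below it. Several lay side by side. In genome order the first 10 were Cpr30F, Cpr47Ea, Cpr47Eb, Cpr47Ec, Cpr47Ed, Cpr47Ee, Cpr49Aa, Cpr49Ab, Cpr49Ah and Cpr50Ca. No summit of any relaxed list lay between chr2R:11239252 and chr2R:11273525, a gap of 34.3 kb that holds Cpr47Ea to Cpr47Ee and the body of Cpr47Ef, whose summits lay outside the gap. The gap around Cpr50Ca and Cpr50Cb, from chr2R:13753394 to chr2R:13822392, was 69.0 kb long. That around Cpr64Aa, Cpr64Ab and Cpr64Ac was 31.6 kb, from chr3L:4188313 to chr3L:4219952, and it also holds the body of Cpr64Ad. These stretches were chosen after their values were seen. Gaps at least as long as that of Cpr50C made up 10.7% of the length between summits of the 3 lists, and gaps at least as long as those of Cpr47E and Cpr64A 19.9% and 21.2%. In the Cpr49A cluster, the largest of the family, none of the 8 genes had an IDR summit, and the strongest relaxed summit in its territories was at rank 10861 of the pool, with 781 bp to the TSS of the odorant receptor gene Or49a.

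Other genes of cuticle formation were counted on the same measure, an IDR summit in the territory, which 39.7% of all protein-coding genes had. Of 30 other cuticle protein genes, of which 26 carry the loose domain consensus, 5 had a summit (16.7%, interval 5.64 to 34.7). For none was the own TSS the nearest. They were Pcp, a pupal cuticle protein gene nested in Gart (rank 1774), and Lcp65Ac, Lcp65Ad, Lcp65Ae and Lcp65Af, which all shared the summit of Cpr65Av. Among the 4291 strongest peaks of replicate 1 the count was again 5, and among those of replicate 2 it was 1 (3.33%). Of 26 Tweedle genes, another family of cuticle proteins, 7 had one (26.9%, interval 11.6 to 47.8). On the 4291 strongest peaks of a single replicate the count was 1 in replicate 1 and 0 in replicate 2, and 0 of 26 allows up to 11.5%. TwdlC had rank 3342, and TwdlN, 337 bp from the summit, TwdlO and 4 more shared rank 4184. Of 33 genes of chitin synthesis and modification and their relatives, 10 had one (30.3%, interval 15.6 to 48.7), led by the chitinase gene Cht7 (rank 740, 165 bp from the TSS), nst, an enzyme of the supply of the chitin precursor (rank 754), and Idgf5 (rank 849), the last pair nearest to the TSS of Gcn5 and GstE10. In the pooled relaxed list 87.9% of these 33 genes had a summit in the territory (interval 71.8 to 96.6). The 72.1% of all protein-coding genes lies inside this interval, close to its lower bound. Within 500 bp of an own TSS, 23 of the 33 had a pooled relaxed summit (69.7%, interval 51.3 to 84.4). The 38.2% of all protein-coding genes lies outside that interval. For IDR summits the share within 500 bp was 12.1%, beside 14.3% of all protein-coding genes. The median span was 3590 bp for these 33 genes and 2165 bp over all protein-coding genes. In the pooled relaxed list the share by territory was 56.7% for the other cuticle protein genes and 73.1% for the Tweedle genes. Within 500 bp of an own TSS it was 3.33% and 19.2%.

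Of 12 tanning genes, whose enzymes darken and harden cuticle, 1 had a summit (8.33%, interval 0.211 to 38.5). It was the tyrosine hydroxylase gene ple, with a summit at rank 768 nearest to the TSS of CG8519. On the 4291 strongest peaks of either single replicate the count was 2, and in the pooled relaxed list it was 8 (66.7%). A last list held 16 genes grouped as regulators of the epidermis and of ecdysone timing, together with odd and its 3 relatives. Of these 20, 16 had a summit (80.0%, interval 56.3 to 94.3) and for 15 the own TSS was the nearest of a summit. All 4 genes of the odd family had one, and without them the count was 12 of 16 (75%, interval 47.6 to 92.7). The strongest were at the nuclear receptor gene Hr3 (rank 79), odd (rank 110) and shn, a zinc-finger gene of the Dpp pathway (rank 125). These 20 genes had a median span of 32241 bp and the Cpr genes 1094 bp, so the territories are not of like size. In families of short clustered genes of other function, 16 of 119 odorant and gustatory receptor genes had a summit (13.4%, interval 7.88 to 20.9). The count was 11 of 51 for odorant-binding protein genes (21.6%, interval 11.3 to 35.3). The lists were described side by side and no difference between them was tested.

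**Figure D5:**
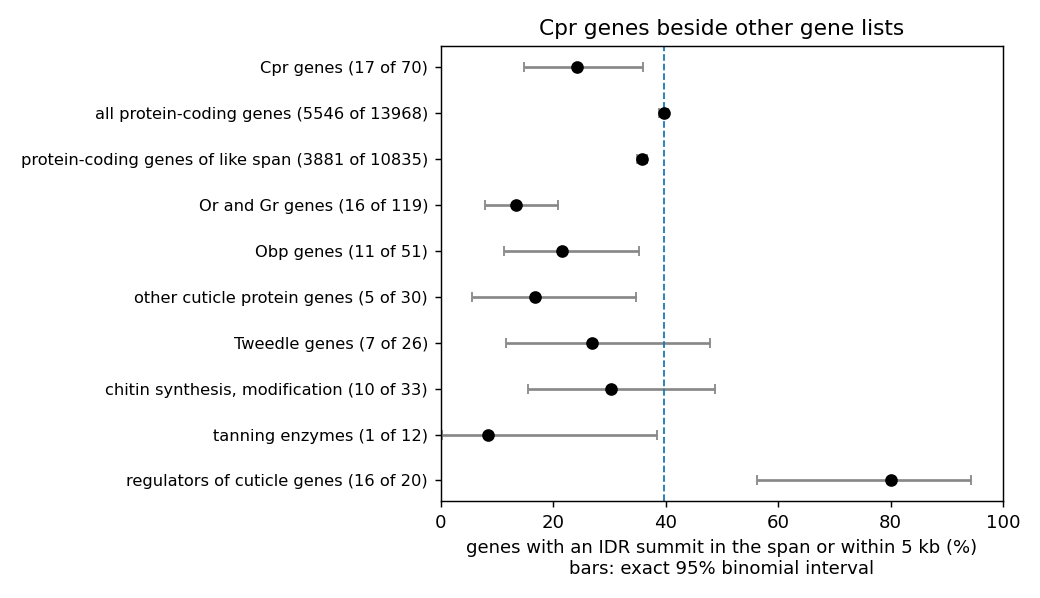
Percent of genes with an IDR summit in the territory (horizontal axis) for the Cpr genes, all protein-coding genes, genes of like span and 7 other lists; points are shares, bars are exact 95% binomial intervals over genes, and the dashed line is the share of all protein-coding genes. The Cpr point lies at 24.3%, left of the line at 39.7%, and the list of regulators, odd family included, lies at 80.0%.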

How the data were processed

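Odd-eGFP ChIP-seq of whole embryos was deposited as peak lists. The deposited text records derive a relaxed list from the alignments of a replicate, or of the pool, with a control, and derive the IDR list from these 3. Caller, aligner, filters on reads and threshold of the IDR: not given in the sources used here. Each deposited signal value is a score of the authors' caller, and the other deposited number is the offset in bp of the summit from the start of the peak. The 4 dm6 lists were used, and the dm3 lists were not used here. Coordinates are 1-based on dm6. All peaks lay within the arm lengths of the NCBI Release 6 sequence.

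Summits were compared with the Ensembl release 115 annotation, using every TSS of 13968 protein-coding genes, in Python 3.11.15 with pandas 2.3.3, scipy 1.17.1 and Biopython 1.88. Ties for nearest TSS counted as own. Counting was tested on simulated data. Of 125 list symbols 121 were found. Named are the members with an IDR summit or nearest to one, 10 members without a relaxed peak, clusters of 4 or more, the 3 strongest genes of other lists and genes sharing a summit. Members and lists were chosen with earlier results of these data known. Biological replicates are separate samples per the labels. Intervals and limits cover counting error only, and depth is unknown. The alternatives were other distances, peak numbers, TSS sets, single replicates and genes of like span.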

Additional observations from a re-analysis of the deposited data

How the results depend on the processing

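The counts moved with the number of peaks and the distance, and the members' share stayed below that of all protein-coding genes in every setting run. With only the IDR peaks above the median rank, 6 members had a summit in the territory (27.0% of all genes, given in parentheses from here on), 1 was nearest by TSS (10.8%), 1 had it within 500 bp (8.52%), and the median distance was 26794 bp (18502 bp). With the 10000 strongest pooled relaxed peaks the values were 28 (56.5%), 10 (28.9%), 3 (24.5%) and 7366 bp (4803 bp). Within 1 kb of the span, 4 members had a summit (22.8%) and 3 were nearest by TSS (16.1%), and within 10 kb 27 (53.6%) and 6 (18.3%). Within 250 bp of an own TSS there were 0 (11.1%) and within 1000 bp 3 (17.2%). Over the single replicates, each with 4291 peaks, the territory count ran from 11 (41.4%) to 17 (40.3%), the count by nearest TSS from 3 (18%) to 4 (17.7%), the count within 500 bp from 0 (15.5%) to 2 (14.4%) and the median distance from 16012 bp (9769 bp) to 18484 bp (9364 bp). The 0 within 500 bp came from replicate 2. There the peak over the Cpr67Fb summit had rank 2179, with its own summit more than 500 bp from that TSS. TSSs of every biotype gave 5 by nearest TSS (16.6%), and any base of the peak in place of the summit gave 18 (40.4%). The percent of all genes moved from 39.7 to 35.8 among genes of like span, inside the members' interval of 14.8 to 36.0 but close to its upper bound. On the 4291 strongest peaks of replicate 1 the share of like span was 36.7%, outside the members' interval of 14.8 to 36.0. For replicate 2 it was 37.9%, outside the members' interval of 8.11 to 26.4. The cause of these shifts was not tested beyond the settings themselves. No paired analysis was possible because there is 1 group. Depth is unknown, so weak sites below the lists cannot be judged.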
